A study of Homo sapiens with 8 samples.

Results

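The genes described here are the human RNA helicases and RNA-binding motif genes, taken as every symbol that starts with DDX, DHX or RBM, leaving out DDX58 and DHX58. They were chosen by symbol and by detection: at least 4 of the 8 arrays had to show a Detection p under 0.01 for a probe, which 65 probes of 60 genes met, among 17184 probes of the whole array set and 7737 genes that could be named. The difference between the groups was not part of the rule, but the gene set was chosen with earlier results of these data known. In all, 106 such genes had at least 1 transcript entry in the authors' deposited table of fold changes. For 77 of them an entry was matched to a single probe. For 15 genes a detected probe was reached only through entries that average 2 probes. These genes, of which DDX11, DDX39B and RBMS3 are also among the 77, are described separately and left out of the counts. A detected probe was lacking for 14 genes, among them DDX6, DDX4, DDX43, RBM19 and RBM33, and 17 genes, among them DHX9, DHX15, DHX36 and RBM12, had no entry that could be tied to a probe. Of the 65 probes, 64 were detected on all 8 arrays. The probe just inside the detection limit was that of RBM8A, detected on 4 shControl arrays and 1 shZNF395 array, so it passed through the group in which it was brighter. The probes nearest outside it were those of DDX6 and RBMY3AP, each detected on 2 shControl arrays and on 0 shZNF395 arrays.

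DEAD-box (DDX) and DEAH-box (DHX) proteins use ATP to unwind or remodel RNA and to strip proteins from it. They act at nearly every step in the life of an RNA, from ribosome assembly in the nucleolus and the rearrangements of the spliceosome to export, translation and decay. RBM is a naming series for proteins with RNA recognition motifs, many of which are spliceosome components, regulators of alternative exons or adaptors that bring RNA to the m6A methylation and exosome machineries.

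The study measured total RNA from MDA-LM2-shTARBP2 cells on Illumina Expression BeadChips, 4 arrays labelled shControl and 4 labelled shZNF395. MDA-LM2 was selected for lung metastasis from MDA-MB-231, a human breast cancer line, and by its name the derivative used carries a hairpin against TARBP2, an RNA-binding partner of Dicer, in both groups. The shZNF395 group received lentiviral hairpins against the transcription factor gene ZNF395 and the shControl group control hairpins, with selection for hairpin expression in both and RNA taken at 48 h. The design text calls the controls mock-transfected. All samples are of this one line, and the sources used here do not say whether the 4 arrays of a group are separate cultures or carry different hairpins, so p-values measure only the spread between these arrays.

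Values are log2 intensities after background correction and quantile normalization, differences are shZNF395 minus shControl, and a gene was called at an adjusted p under 0.05 in limma's moderated test with Benjamini-Hochberg adjustment over all 17184 probes. A level of one probe is not comparable with that of another. ZNF395 itself read 9.89, 9.81, 9.80 and 10.05 on shControl arrays 1 to 4 and 9.06, 8.99, 9.22 and 9.06 on shZNF395 arrays 1 to 4. Its groups did not overlap, and 57.3% of the control level remained (log2 difference −0.80, SE 0.08, limma adjusted p = 1.01e-05). The arrays had median raw signals of 53.2 to 57.1 and 16476 to 17406 detected probes, the fewest on shControl 3, and correlated at 0.993 or above within a group and at 0.975 or below between groups. CD44, a surface marker of this line, was detected on all 8 arrays by 2 of its 3 probes, while the luminal markers ESR1, PGR and CDH1 and the leukocyte markers PTPRC, TYROBP and ITGAM were detected on 0 of 8. VIM and AXL had no paired probe.

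Most measured members were lower in the shZNF395 arrays. Of the 60 genes, 33 fell, 5 rose and 22 did not pass the threshold, and 48 had a difference below 0. The share that fell was 55% among the members, beside 30.0% of all detected probes and 28.0% of all named genes. The share that rose was 8.33%, beside 25.3% of all probes and 30.1% of all named genes. Counting either direction, 63.3% of the members passed, beside 55.4% of all probes and 58.1% of all named genes. Their median difference was −0.25, with −0.05 for all probes and −0.00 for all named genes. These shares and medians are a description with no test of the set, because the members were chosen with earlier results known. In bulk RNA, fewer cells of a type and less RNA per cell cannot be told apart.

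The falls were modest in size. The median of the 33 was −0.42, which leaves 74.5% of the control level. Among the members, 29 fell by at least 1.2-fold, 4 by at least 1.5-fold and 0 by at least 2-fold. Among the rises, 4 reached 1.2-fold, 3 reached 1.5-fold and 2 reached 2-fold. For all probes, 26.8% fell and 22.3% rose by at least 1.2-fold, 6.73% and 9.15% by at least 1.5-fold, and 0.727% and 3.47% by at least 2-fold. The spread between arrays was small beside these differences, with a median SD of 0.08 in shControl and 0.10 in shZNF395. The 2 groups did not overlap at all for 33 of the 60 genes, compared with 49.0% of all probes. Among the 5156 named genes as bright as most members (mean log2 intensity 6.86 to 11.6), 30.2% fell and 30.5% rose.

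**Figure D1:**
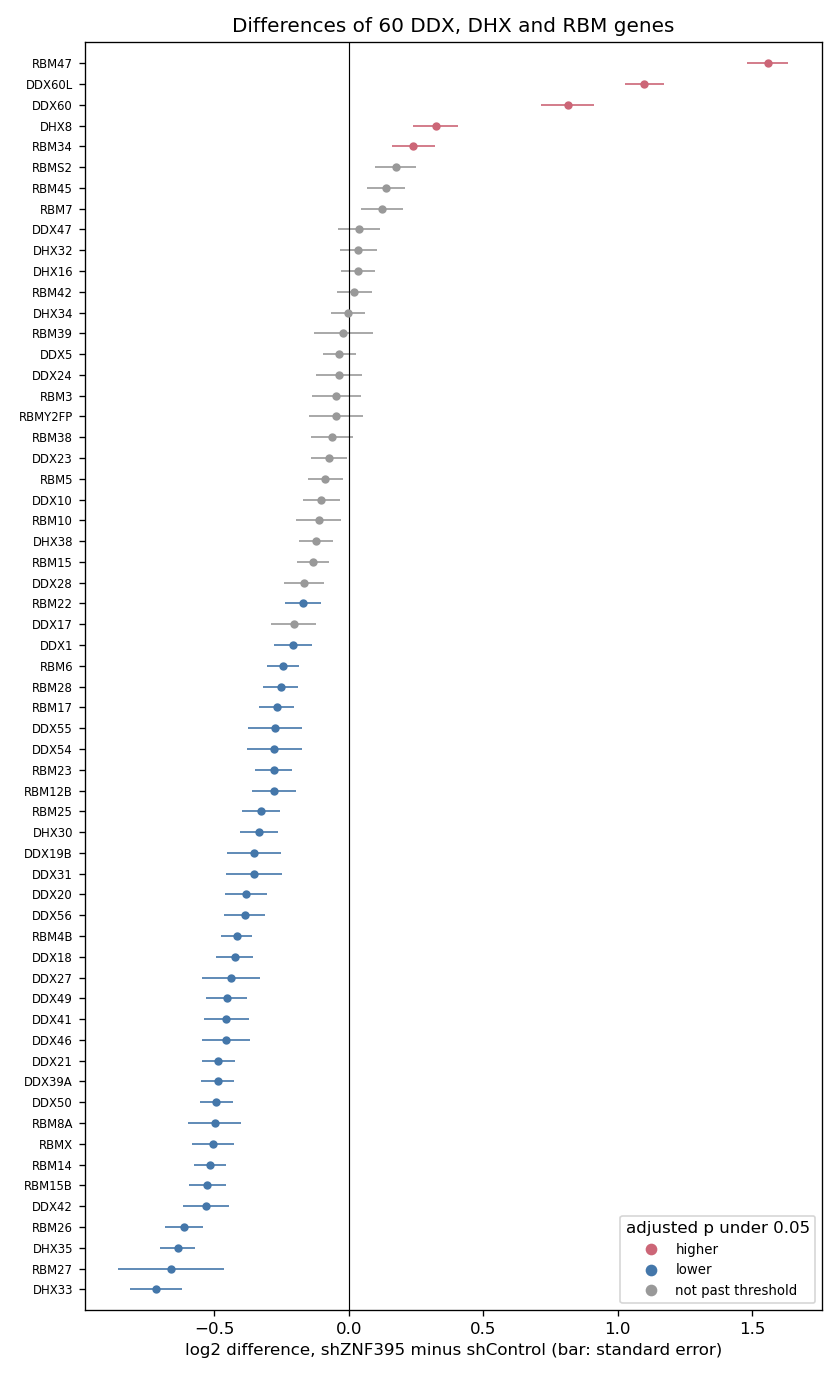
Log2 difference (shZNF395 minus shControl, horizontal axis) with its standard error for each of the 60 measured DDX, DHX and RBM genes, sorted by difference and coloured by call. The 33 called falls reach from −0.17 to −0.72, and RBM47, DDX60L and DDX60 lie beyond the other rises at 0.81 to 1.56.

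**Figure D2:**
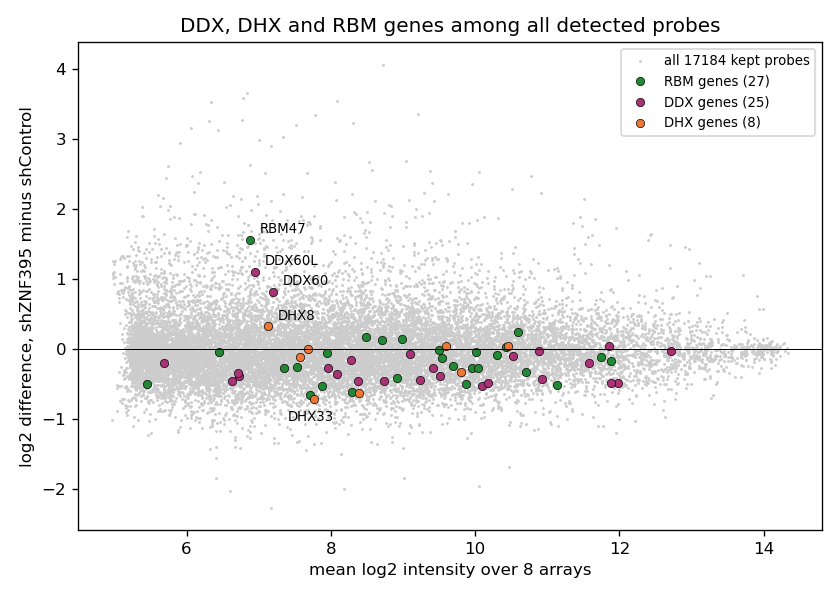
Log2 difference (vertical axis) against mean log2 intensity over 8 arrays (horizontal axis) for all 17184 detected probes, in grey, with the member genes drawn over them. The member genes spread over the brightness range, and most lie below 0.

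The DDX genes were the most often lower. Of 25 measured DDX genes, 16 fell (64%) and 2 rose (8%), with a median difference of −0.35. Of 8 DHX genes, 3 fell (37.5%) and 1 rose (12.5%), with a median of −0.06. Of 27 RBM genes, 14 fell (51.9%) and 2 rose (7.41%), with a median of −0.17. Among all probes 30.0% fell and 25.3% rose, so the DHX share of falls was near that of all probes. The difference between these 3 families was not tested.

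The helicases of ribosome assembly were the largest role group and mostly fell. Of 13 measured, 10 fell and 0 rose, with a median of −0.39 (76.9% lower, where 30.0% of all probes were). DHX33, which acts in ribosomal RNA synthesis, fell furthest of all 60 measured members. It read 8.21, 8.12, 7.94 and 8.23 in shControl and 7.52, 7.24, 7.30 and 7.58 in shZNF395. Every shZNF395 array lay below every control array, with a log2 difference of −0.72 (SE 0.10, limma adjusted p = 0.000108).

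DDX21 and DDX50 are nucleolar paralogues, of which DDX21 binds ribosomal RNA genes and snoRNAs. DDX21 read 12.20, 12.13, 12.09 and 12.09 in shControl and 11.71, 11.59, 11.68 and 11.61 in shZNF395. DDX50 read 10.42, 10.44, 10.46 and 10.39 in shControl and 9.96, 9.86, 10.02 and 9.89 in shZNF395. Both pairs of groups were clearly apart and the falls were alike in size, −0.48 for DDX21 (SE 0.06, limma adjusted p = 6.07e-05) and −0.49 for DDX50 (SE 0.06, limma adjusted p = 5.8e-05). The promoter window of DDX50 is shown because its gene was among the 10 largest falls and because it carries the motif most frequent among the members, CCGGAAG, an ETS-family core, in capitals below. The window runs 5′ to 3′ over chr10:68901065-68901364 on the plus strand (RefSeq, GRCh38.p14), from 250 bases before to 50 after the annotated start, and the motif begins 48 bases upstream.
DDX50: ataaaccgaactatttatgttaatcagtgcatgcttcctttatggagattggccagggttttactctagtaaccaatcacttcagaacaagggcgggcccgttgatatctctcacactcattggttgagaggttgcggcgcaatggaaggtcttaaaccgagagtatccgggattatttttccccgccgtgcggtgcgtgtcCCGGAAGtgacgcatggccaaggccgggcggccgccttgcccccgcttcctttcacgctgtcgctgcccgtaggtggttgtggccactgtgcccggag

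The other called genes of this group were DDX49 (−0.45), DDX27 (−0.44), DDX18 (−0.42), DDX56 (−0.39), DDX31 (−0.35), DDX54 (−0.28) and DDX55 (−0.27). DDX18, DDX27, DDX54, DDX55 and DDX56 are linked to the large ribosomal subunit. The groups overlapped for DDX27, DDX31 and DDX55, each by a single array or a pair of arrays: for DDX27, shZNF395 3 at 9.30 stood above shControl 3 at 9.22. DDX10 (−0.10), DDX24 (−0.04) and DDX47 (0.04) did not pass. The calls of DDX54 and DDX55 were lost when single arrays were left out. DDX47, which takes part in early ribosomal RNA processing, had another, dimmer probe at −0.21 (limma adjusted p = 0.0441), so its probes did not give one answer.

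Spliceosome helicases were divided. Of 11 measured, 5 fell (45.5%, where 30.0% of all probes did), 1 rose and 5 did not pass, with a median of −0.20. DHX35, a helicase found in the catalytic spliceosome, fell most. It read 8.81, 8.58, 8.69 and 8.73 in shControl and 8.09, 8.05, 8.11 and 8.03 in shZNF395. The shZNF395 arrays lay close together and well below the controls (log2 difference −0.64, SE 0.06, limma adjusted p = 1.58e-05).

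DDX42, which binds the SF3B subunit of the U2 particle, read 10.33, 10.38, 10.41 and 10.30 in shControl and 9.74, 9.73, 10.08 and 9.74 in shZNF395. Array shZNF395 3 stood above the rest of its group but still below all controls (log2 difference −0.53, SE 0.09, limma adjusted p = 0.000349). DDX39A, a paralogue of the splicing and export helicase DDX39B, read 12.17, 12.20, 12.26 and 12.26 in shControl and 11.82, 11.66, 11.76 and 11.71 in shZNF395. Its groups were also apart (−0.49, SE 0.06, limma adjusted p = 6.75e-05). DDX46, which helps the U2 particle join the branch site, fell by 0.46 and so did DDX41, a helicase of the late spliceosome mutated in some myeloid leukaemias.

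DHX8, which releases the spliced mRNA from the spliceosome, went the other way. It read 6.97, 6.96, 7.04 and 6.91 in shControl and 7.36, 7.37, 7.05 and 7.39 in shZNF395. The shZNF395 arrays other than shZNF395 3 were clearly above the controls, and shZNF395 3 was level with the highest control (log2 difference 0.32, SE 0.08, limma adjusted p = 0.00738). Without that array the difference was 0.41. The other DEAH-box drivers of the splicing cycle, DHX16 (0.03) and DHX38 (−0.12), and the DEAD-box DDX23 (−0.07), did not pass. Neither did DDX5 (−0.03), a splicing and Microprocessor helicase, nor its paralogue DDX17 (−0.20, limma adjusted p = 0.06), whose probe was dim.

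Among 4 helicases of mRNA export, translation and turnover, 3 fell: DDX20 (−0.38, SE 0.08, limma adjusted p = 0.00174), a subunit of the SMN complex that loads Sm proteins on spliceosomal RNAs, DDX19B (−0.35), which releases export factors at the nuclear pore, and DDX1 (−0.21), a subunit of the tRNA ligase complex, whose call was lost without single arrays and under some scalings. The DDX19B groups met at 6.62, the level of shControl 3 and shZNF395 1. DHX34, a factor of nonsense-mediated decay, read −0.00 and did not pass. Of the mitochondrial helicases, DHX30, a mitochondrial ribosome assembly factor, fell by 0.33 and by 0.44 on its other probe, while DDX28 (−0.17) did not pass. DHX32 (0.04) did not pass either.

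The interferon-inducible helicases DDX60 and DDX60L, neighbouring paralogues with antiviral roles, both rose, and they were the only members of their group. DDX60 read 6.91, 6.67, 6.70 and 6.87 in shControl and 7.76, 7.64, 7.67 and 7.34 in shZNF395. DDX60L read 6.31, 6.45, 6.49 and 6.36 in shControl and 7.52, 7.45, 7.64 and 7.39 in shZNF395. Neither gene's groups overlapped, and the rises were 1.76-fold for DDX60 (log2 difference 0.81, SE 0.10, limma adjusted p = 5.25e-05) and 2.14-fold for DDX60L (1.10, SE 0.07, limma adjusted p = 7.07e-07). Whether the probe of one gene also binds the transcript of the other was not tested, since probe sequences were not used here.

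The promoter windows of these genes are shown because they rose together and because, of the 54 members with a window, they alone hold GAAA, any 2 bases and GAAA again, the core of the interferon-stimulated response element. DDX60 starts on the minus strand and its window covers chr4:168318703-168319002. That of DDX60L, also on the minus strand, covers chr4:168480443-168480742, 162 kb away. Capitals mark the motif, which begins 88 and 53 bases upstream of the start in DDX60 and 80 and 50 bases upstream in DDX60L (RefSeq, GRCh38.p14, 5′ to 3′).
DDX60: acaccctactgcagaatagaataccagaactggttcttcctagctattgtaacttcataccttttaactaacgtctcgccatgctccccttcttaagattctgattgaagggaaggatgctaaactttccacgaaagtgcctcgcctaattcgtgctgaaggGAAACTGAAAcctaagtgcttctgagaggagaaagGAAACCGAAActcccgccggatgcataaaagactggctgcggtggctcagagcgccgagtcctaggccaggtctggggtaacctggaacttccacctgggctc
DDX60L: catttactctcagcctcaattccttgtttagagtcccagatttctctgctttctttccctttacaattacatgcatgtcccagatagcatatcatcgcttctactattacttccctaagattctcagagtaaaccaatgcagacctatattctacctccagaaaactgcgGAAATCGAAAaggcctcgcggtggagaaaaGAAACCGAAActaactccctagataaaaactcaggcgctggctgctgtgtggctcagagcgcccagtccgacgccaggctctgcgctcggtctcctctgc

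Each window holds 2 copies, and GAAACCGAAA is the copy nearer the start in both. On either strand this motif was found in 4.38% of 27305 genes with a window and in 3.98% of 6258 such genes measured here. Of the 7 motifs searched on both strands, CCGGAAG was in 22 of 54 member windows (40.7%), beside 23.3% of measured genes and 12.2% of all genes. Of these 22 genes 13 fell and 2 rose, where 55% of all 60 members fell and 8.33% rose. Whether the motif goes with the direction of change was not tested. GCCATNTTG, the YY1 core, was in 9 (16.7%, beside 6.92% of measured genes) and CACGTG, the E-box, in 9 (16.7%, beside 12.9%). The CRE palindrome TGACGTCA was in 3, the NRF1 palindrome (GCGC followed by ATGCGC) in 2 and a STAT-like motif (TTTCC, any base, GGAA) in 0 of the 54. Overlap between matches of different motifs was not examined. A match describes the sequence only.

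**Figure D3:**
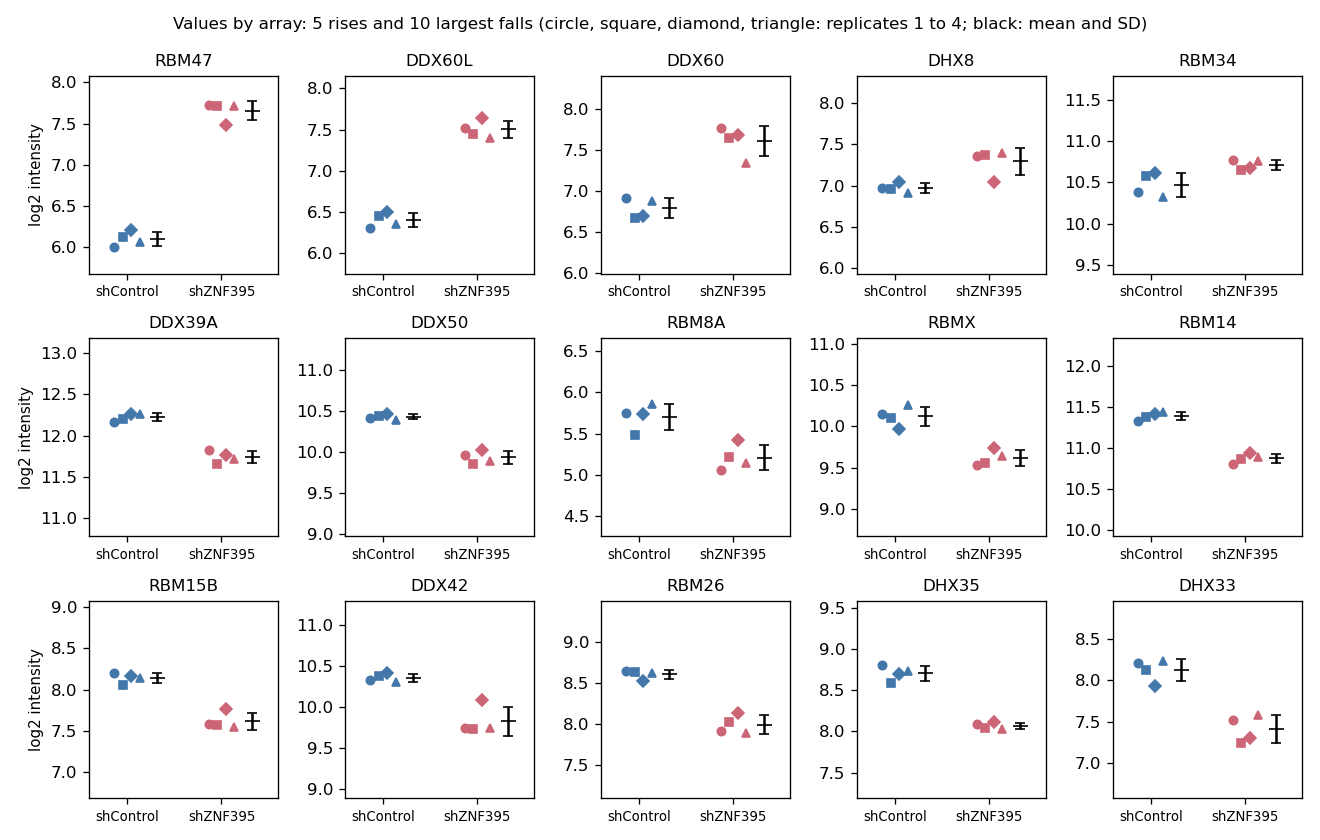
Log2 intensity on each array (vertical axis) for the 5 genes that rose and the 10 largest falls with groups that do not overlap, with symbols for replicates 1 to 4 and the mean and SD of each group in black. The vertical axes span the same number of log2 units in every panel, and the shZNF395 3 point of DHX8, DDX42, RBM15B and RBM47 lies nearer the controls than the rest of its group.

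RBM47 was the strongest rise among the measured members. It is an RNA-binding protein that acts as a cofactor of APOBEC1 and affects splicing and mRNA stability, and it is known to restrain the progression of breast cancer. It read 6.0, 6.12, 6.21 and 6.06 in shControl and 7.73, 7.71, 7.48 and 7.72 in shZNF395. The shZNF395 arrays were all far above the controls, 2.95-fold on average (log2 difference 1.56, SE 0.08, limma adjusted p = 7.93e-08). A pair of further RBM47 probes, reached through an entry that averages 2 probes, read 1.59 and 1.22. The probe at 1.22 was detected on 2 shControl arrays and on all 4 shZNF395 arrays. It met the detection rule through the shZNF395 arrays alone, so it adds no independent support. In its group of 4 regulators of mRNA stability and translation, RBMS2 (0.17, limma adjusted p = 0.07), the p53 target RBM38 (−0.06) and the cold-inducible RBM3 (−0.05) did not pass, and 0 fell.

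The RBM proteins of nuclear RNA decay and m6A methylation had the lowest median of the RBM groups, −0.53. Of these 5 genes 3 fell (60%, where 30.0% of all probes did). RBM26 and RBM27 are related zinc-finger proteins tied to the nuclear exosome through poly(A) tails. RBM26 read 8.65, 8.63, 8.52 and 8.62 in shControl and 7.91, 8.02, 8.14 and 7.90 in shZNF395. Its groups were apart (−0.61, SE 0.07, limma adjusted p = 3.91e-05). RBM27 read 8.39, 8.07, 7.41 and 8.28 in shControl and 7.27, 7.10, 7.71 and 7.44 in shZNF395. Array shControl 3 lay among the shZNF395 arrays, so the groups overlapped, and the SE of its difference of −0.66 was the highest of the members at 0.20 (limma adjusted p = 0.0153). Without shControl 3 the RBM27 difference was −0.87, and without both arrays numbered 3 it was −0.98.

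RBM15B and RBM15 are paralogues that bring the m6A writer to RNA. RBM15B read 8.21, 8.06, 8.17 and 8.14 in shControl and 7.58, 7.57, 7.77 and 7.55 in shZNF395. All shZNF395 arrays were lower (−0.53, SE 0.07, limma adjusted p = 9.19e-05). RBM15 (−0.13, limma adjusted p = 0.0848) and the exosome adaptor RBM7 (0.12) did not pass. The difference between the RBM15B and RBM15 changes was not tested.

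Of 7 RBM splicing regulators, 4 fell (57.1%, where 30.0% of all probes did) and 0 rose. All 7 differences were below 0, with a median of −0.24. RBMX, an hnRNP protein encoded on the X chromosome, read 10.15, 10.10, 9.97 and 10.26 in shControl and 9.53, 9.56, 9.74 and 9.64 in shZNF395. Its groups did not overlap (−0.50, SE 0.08, limma adjusted p = 0.000279). RBM4B (−0.42, limma adjusted p = 0.000143), RBM23 (−0.28) and RBM6 (−0.24) also fell. RBM6 belongs with RBM5 and RBM10 to a set of related exon-choice factors, and the single-probe readings of RBM5 (−0.09) and RBM10 (−0.11) did not pass. RBM39, a paralogue of RBM23, read −0.02 on its brighter probe and did not pass, but fell by 0.56 on its dim one (limma adjusted p = 0.00761), where the groups overlapped.

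Spliceosome and exon junction components of the RBM series fell in 4 of 5 cases (80%, where 30.0% of all probes fell), with a median of −0.27. RBM8A, the Y14 subunit of the exon junction complex, read 5.75, 5.48, 5.74 and 5.85 in shControl and 5.06, 5.21, 5.42 and 5.14 in shZNF395. The groups came close, with a difference of −0.50, and most shZNF395 readings were not above detection. Its probe met the detection rule through the shControl arrays alone, so the fall is given here with no p-value. RBM8A is still counted in the 4 of 5 and among the 33 falls. Requiring detection on all 8 arrays, which leaves it out, gave 32 falls. RBM25 (−0.33), a U1-associated factor, and RBM17 (−0.27), which joins the U2 particle, fell with groups apart. RBM22 (−0.17), a component of the activated spliceosome, was barely inside the threshold, its groups overlapped and its call was lost without single arrays. RBM42 (0.02) did not pass.

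The pair of RBM genes linked to ribosome assembly split. RBM28, a nucleolar protein of the large subunit pathway, fell by 0.25 (SE 0.06, limma adjusted p = 0.00615). RBM34 rose by a log2 difference of 0.24 (SE 0.08, limma adjusted p = 0.0233), from 10.38, 10.58, 10.61 and 10.32 in shControl to 10.77, 10.65, 10.67 and 10.76 in shZNF395. The groups did not overlap, but the nearest arrays were close together, and the RBM34 call was lost without single arrays. Of the remaining RBM genes, RBM14, a paraspeckle protein, read 11.32, 11.38, 11.41 and 11.44 in shControl and 10.80, 10.87, 10.94 and 10.89 in shZNF395. Its groups were far apart (−0.52, SE 0.06, limma adjusted p = 3.83e-05). RBM12B fell by 0.28 and RBM45 (0.14) and RBMY2FP (−0.05) did not pass.

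**Figure D4:**
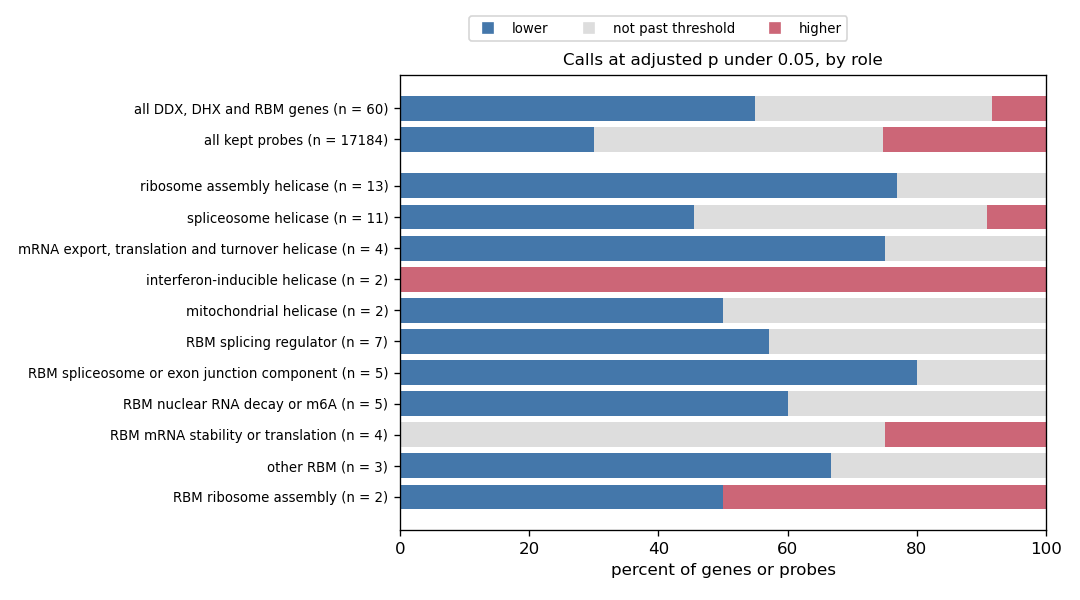
Percent of the measured genes of each role that rose or fell at an adjusted p under 0.05 (horizontal axis), with all 60 measured DDX, DHX and RBM genes and all detected probes for comparison. Ribosome assembly helicases fell in 76.9% of cases and all detected probes in 30.0%. The roles drawn hold 2 to 13 genes each, and DHX32 and RBMY2FP are not drawn.

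Genes read by more than 1 kept probe showed how far the result depends on the probe. Through single-probe entries there were 5 such genes among the 60, DHX30, RBM23, RBM38, RBM39 and DDX47, and averaged entries gave further probes for DDX19B, RBM10 and RBM47. DHX30 and RBM23 were lower on both probes and RBM38 passed on neither (−0.06 and −0.14). For RBM39 and DDX47 the brighter probe did not pass and the dimmer one was lower. RBM10 had a further probe, reached through an averaged entry, at −0.51, while the probe counted above read −0.11. For that averaged entry 0.13 matches were expected by chance, so the pairing is less certain. DDX19B had a brighter probe of this kind at −0.26, with groups that did not overlap (limma adjusted p = 0.00292). A dimmer one read −0.42, with groups that overlapped. That dimmer probe was detected on 4 shControl arrays and on 1 shZNF395 array. It met the detection rule through the shControl arrays alone, so it is given with no test.

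Entries that the authors' table averages over 2 probes brought in further members, and RBMS3 had the strongest fall of any member reached. RBMS3, a single-strand RNA-binding protein that stabilises mRNAs, read 7.42, 7.27, 7.21 and 7.60 in shControl and 5.85, 5.75, 6.21 and 6.09 in shZNF395 on its brighter probe. The groups were more than a log2 unit apart in mean (−1.40, SE 0.12, limma adjusted p = 3.33e-06), and its other probe fell by 1.13 (limma adjusted p = 3.16e-06). Another RBMS3 probe, with an entry of its own, was not detected on any array. DHX37, a helicase of the small ribosomal subunit pathway, fell by 0.59 on its bright probe (SE 0.09, limma adjusted p = 0.000242). Its dim probe was below detection on all shZNF395 arrays and at least 1.15-fold lower there (measured means 5.49 and 5.17). That probe met the detection rule through the shControl arrays alone and is given with no test.

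RBM43 was below detection on all shControl arrays and detected on all shZNF395 arrays, at least 1.19-fold higher there (measured means 4.66 and 5.51). Its probe met the detection rule through the shZNF395 arrays alone, so it had to differ and its difference is given with no test. DDX52, which acts in small subunit assembly, was higher on both probes (0.36 and 0.26). DDX11, a DNA helicase, read −0.54 and DDX39B read −0.24 on the one detected probe of each. The matches expected by chance were 0.05 for the DDX11 entry, 0.07 for DDX52, 0.09 for DDX3X, 0.12 for RBM43 and 0.13 for DDX39B. These pairings are less certain. The translation helicase DDX3X read −0.22 and −0.19 and did not pass. Adding these genes by their brightest probe gave 7 higher and 39 lower among 75 genes. The 7 include RBM43, which the detection rule let in only because it was higher, so its place there is no evidence of a rise. For members tied to no probe, the authors' deposited table lists values on its own compressed scale, −0.31 for DHX9, −0.22 for RBM12, 0.20 for RBMS1, 0.10 for DHX40 and −0.06 for DHX15, with no array values behind them.

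**Figure D5:**
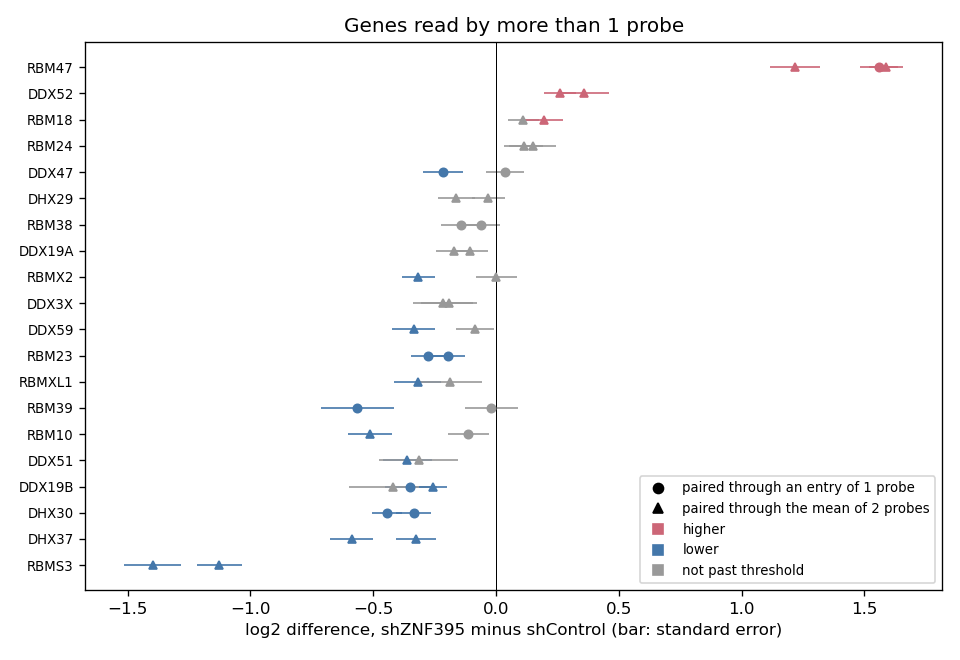
Log2 difference with its standard error (horizontal axis) for each kept probe of the members read by more than 1 probe, including those reached through entries that average 2 probes. Both RBMS3 probes lie below −1, the RBM47 probes lie above 1, and RBM39 has one probe near 0 and another at −0.56.

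Partners of these helicases and RBM proteins were read from lists of 92 genes, of which 65 were measured: 27 fell (41.5%) and 4 rose (6.15%), with a median of −0.18, beside 30.0% and 25.3% of all probes. The SMN complex around DDX20 had 3 of 4 measured members lower, GEMIN5 (−0.91), GEMIN4 (−0.55) and GEMIN6 (−0.33). Of 10 measured mRNA export factors 5 fell, with THOC6, a subunit of the TREX complex, at −1.02 (SE 0.07, limma adjusted p = 9.57e-07), and THOC2 (−0.40) and the export receptor NXF1 (−0.38) among them. The exosome adaptor ZCCHC8, partner of RBM7, fell by 0.53 and PABPN1 by 0.37, while the nuclease EXOSC10 rose (0.28), so 3 of 6 in that list fell and 1 rose. In the exon junction complex MAGOH, the direct partner of RBM8A, fell by 0.36 and UPF3B by 0.29, and PYM1, which takes the complex apart, rose (0.36). Of the 8 measured in that list, 2 fell (25%, below the 30.0% of all probes), 1 rose and 5 did not pass, with a median of −0.06.

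METTL14, of the m6A writer, fell by 0.39 while METTL3 (−0.16) and VIRMA (0.04) did not pass. The G-patch proteins CHERP (−0.46) and TFIP11 (−0.32), activators or partners of DEAH helicases, fell among 6 measured (33.3%, near the 30.0% of all probes). DGCR8, the Microprocessor partner of DDX5 and DDX17, fell by 0.47. In the decapping list 4 of 10 fell (40%, beside 30.0% of all probes), among them EDC4 (−0.48), EDC3 (−0.28) and LSM14A (−0.29). Its median was −0.10. Of the eIF4F list 2 of 5 fell (40%), EIF4G1 (−0.46) and EIF4EBP1 (−0.28), both with groups that overlapped. The median of that list was −0.06. Of 12 other RNA helicases 4 fell (33.3%, near the 30.0% of all probes), with UPF1 of nonsense-mediated decay at −0.41, and 2 rose, the interferon-inducible HELZ2 (0.24) and the meiotic YTHDC2 (0.19).

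One array stood apart within the knock-down group. Of the 38 called members, shZNF395 3 was the array of its group nearest to the controls for 17, while the others were so for 5 to 9. On the control side shControl 3 was nearest for 12, beside 7 to 11 for the rest. All 38 calls kept their sign under 24 alternatives with other settings or arrays left out. Some of these, such as another detection filter or moderation, leave a gene's difference unchanged, so its sign could not turn there. When each array was left out in turn, 33 of the 38 calls held throughout and DDX1, DDX54, DDX55, RBM22 and RBM34 did not. Under 5 other scalings of the arrays 30 of the 38 held throughout. RBM6, RBM12B and RBM28 were lost there beside those 5 genes, RBM6 and RBM28 with no normalization between arrays and RBM12B with cyclic loess.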

How the data were processed

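Biotin-labelled total RNA of 8 samples (4 shControl, 4 shZNF395, grouped and numbered by their labels) was read on Illumina BeadChips, per the labels' protocols. For 47323 probes, the non-normalized table deposited by the authors gives a raw intensity per array together with its detection p-value, per the file headers. Normalized intensity values of the authors, on a linear scale, stand in the deposited series matrix, and lumi is named in the submitters' processing notes. A further deposited table lists the authors' fold changes of 39747 transcript entries, whose scale approaches log2 for bright signals (slope 1.042) and is compressed for dim ones, and enters no test.

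No file pairs probes with transcripts. The pairing was recovered by computing each deposited fold change from the series matrix through an inverse hyperbolic sine with 3 parameters, started from 11 pairs assumed from knowledge of this array type and fitted to the values (largest residual 5.83e-10). Within 1e-09, 33125 entries (83.3%) matched 1 probe, against 0.0415% after a shift, and 2258 more matched the mean of 2 probes within 7e-10. A match to 2 probes was accepted with up to 0.15 chance matches expected for the entry, so some of these pairings may be wrong. Among the members the expected number ran from 0.0016 for RBMS3 to 0.14 for DDX19A. Entries were named through RefSeq (GRCh38.p14). Of the 60 measured members, 54 had a promoter window; DDX18, DDX49, DHX33, RBM12B, RBM39 and RBMY2FP had none.

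The raw intensities went through limma (3.58.1, R 4.3.3) with normexp on the detection p-values, offset 16, then quantile normalization and log2. Probes with Detection p under 0.01 on at least 4 arrays were kept, the brightest kept probe stood for its gene, and lmFit and eBayes were run two-sided with Benjamini-Hochberg adjustment over all 17184 probes at a threshold of 0.05. Where no array of a group detected a probe, the fold is a bound, against the higher of its own value and the lowest detected signal per array. The fit was tested on simulated data. The number of arrays limits the precision.

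Members and gene lists were chosen with earlier results of these data known. Named in full are ZNF395, the 10 largest rises and falls with groups that do not overlap, and of each role the 3 members with the smallest p; other members are named with a difference. Same-numbered arrays did not deviate together, so the numbers were not taken as pairs. The correlations between their deviations from the group means were −0.42 for the arrays numbered 3 and −0.11 to 0.01 for the others. The arrays numbered 3 thus tended to deviate in opposite directions, and the cause was not tested. Alternatives covered background, normalization, filter, probe, threshold, moderation, weights, block and each array left out. The rest used Python (3.11.15), pandas (2.3.3), numpy (2.4.6) and scipy (1.17.1).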

Additional observations from a re-analysis of the deposited data

Results flagged for a closer look

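Of 66 groups of 4 arrays examined for the named members, 5 held an array far from the other three by Dixon's criterion, and chance gives about 1 in 20. In 4 of these the array was shZNF395 3. DDX42 read 10.08 there, beside 9.73 to 9.74 on the rest of the group. DHX8 read 7.05, beside 7.36 to 7.39. RBM15B read 7.77, beside 7.55 to 7.58, and RBM47 read 7.48, beside 7.71 to 7.73. Each of these values lay on the side of the controls. In DHX30 it was shControl 2, at 9.86 beside 10.01 to 10.02. Without the array in question the differences were −0.62 for DDX42, 0.41 for DHX8, −0.58 for RBM15B, 1.62 for RBM47 and −0.37 for DHX30.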

How the results depend on the processing

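With each array left out in turn, 4 to 6 members rose and 30 to 32 fell, with a median difference of −0.27 to −0.22. Scaling moved the counts to 7 higher and 28 lower with cyclic loess (the median of all probes was then 0.00), 4 and 28 with no normalization between arrays and 4 and 32 with median scaling; the series matrix values gave 5 and 33. Detection on all 8 arrays, which leaves out RBM8A, gave 5 and 32. With at least 1.5-fold also required, 3 rose and 4 fell, and at an adjusted p under 0.01, 4 and 25. Chosen after seeing the data, leaving out DDX60, DDX60L and RBM47 gave 2 higher and 33 lower, and leaving out both arrays numbered 3 gave 7 higher and 29 lower with a median of −0.21. The replicate number as a block gave 4 higher and 29 lower, losing DDX1, DDX54, DDX55, RBM22 and RBM34; no array matched best with its own number, and the arrays share only a number. All 38 called members kept their sign under the 5 other scalings and with each array left out. Among the 33 genes named by rule, a pair below the threshold turned sign: DHX32 ranged from −0.012 to 0.069 and RBMY2FP from −0.11 to 0.032 with single arrays left out, and RBMY2FP was 0.042 with array weights, 0.015 with cyclic loess and 0.097 without both arrays numbered 3; the cause was not tested. Of 887 values of 33 named genes under 27 alternatives, 830 kept direction and side of the threshold. Some alternatives, such as leaving out DDX60, DDX60L and RBM47, cannot change the value of a gene that stays, which raises that number. Of the 27 called genes among the 33, 21 lost their call under some alternative, the stricter thresholds included. Dim probes, such as that of RBM8A, have little signal over background, which limits the size of their differences.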
